A study of Rattus norvegicus with 23 samples.

Results

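The genes described here encode the proteins that move sodium, potassium, calcium, chloride, protons and bicarbonate across cell membranes by exchange, cotransport or ATP-driven pumping. They were chosen by gene symbol from an array of the rat area postrema: every probe set (the group of probes that reports 1 transcript) with a single symbol starting with Slc4a, Slc8a, Slc9a, Slc12a, Slc24a, Atp1a, Atp1b or Atp2, leaving out Slc4a5. Where a gene had several probe sets, the 1 with the highest mean over all arrays was used. This gave 44 genes of the 14218 with a single symbol on the array, and these 44 carried 68 of its 31099 probe sets. There were 7 genes of the bicarbonate transporter family (Slc4a, grouped by symbol) and 9 calcium pumps. Another 8 belonged to the cation-chloride cotransporter family (Slc12a, also grouped by symbol). The others were 4 potassium-dependent sodium/calcium exchangers, 3 sodium/calcium exchangers, 6 sodium/proton exchangers and 5 sodium pump subunits. The prefixes also caught 2 genes that encode no transporter, Slc4a1ap, an adaptor protein, and Atp23, a mitochondrial protease, and both were kept.

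The area postrema is a sensory organ of the medulla on the floor of the fourth ventricle, where the capillaries lack a tight blood-brain barrier and the cells meet the solutes of the blood directly. Sodium pumps, built from a catalytic alpha and a supporting beta subunit, hold the sodium and potassium gradients on which the exchangers and cotransporters run. The cotransporter Slc12a2 (NKCC1) loads cells with chloride and Slc12a5 (KCC2), the neuronal potassium-chloride cotransporter, removes it. Plasma membrane calcium pumps (Atp2b genes) and sodium/calcium exchangers (Slc8a and Slc24a genes) expel calcium after signalling, and the SERCA pumps (Atp2a genes) return it to the endoplasmic reticulum.

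RNA was measured on 23 Affymetrix Rat Genome 230 2.0 arrays, each holding RNA pooled from 5 male rats. There were 5 arrays of the spontaneously hypertensive rat (SHR) and 5 of the Wistar Kyoto rat (WKY), the strain with normal blood pressure from which SHR was bred, both aged 10 to 13 weeks. There were 4 arrays of control Sprague Dawley rats, 5 of Sprague Dawley rats fasted for 48 h and 4 of Sprague Dawley rats dehydrated for 72 h, all aged 10 to 12 weeks. The strain arrays and the Sprague Dawley arrays carried different labelling texts, so strain and labelling cannot be told apart and no test was made across these sets. Within the Sprague Dawley set, control arrays 1 and 2 had a shorter labelling text than the others. Deposited signals were linear, and the mean of each array after removing 2% of values at each end was 100.03. Of the 8 area postrema markers listed, 7 were measured, and the peptide precursor Cartpt had signals from 1369 to 2646. The signal of the thyroid hormone carrier Ttr, an abundant choroid plexus transcript, differed widely: it ran from 44.2 to 189 over the strain arrays and from 152 to 7953 over the Sprague Dawley arrays. Because each array holds a pool of tissue, fewer cells of a type and less RNA per cell cannot be told apart anywhere below.

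After dim probe sets were left out, 31 of the 44 genes could be tested between strains and 32 among the Sprague Dawley groups. The filter lay at a signal of 29.0 for the strains and 27.4 for the Sprague Dawley arrays. The 12 genes below it in both sets were Atp1a4, Atp1b4, Atp2a3, Atp2b4, Atp2c2, Slc12a1, Slc12a3, Slc12a8, Slc24a1, Slc4a1, Slc9a3 and Slc9a4. Among them are Slc12a1 (NKCC2) and Slc12a3 (NCC), the salt cotransporters of the kidney, whose mean signals in the Sprague Dawley arrays were 7.0 and 14.5. The neuronal exchanger Slc8a3 passed only in the Sprague Dawley set.

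None of the 3 tested sodium pump beta subunits passed in any of the 4 comparisons, with log2 differences from -0.13 to 0.12. Atp1b1, the most widespread beta subunit, had signals of 2454 to 2819 in SHR, 2386 to 2654 in WKY, 3111 to 3590 in control, 2932 to 3467 in fasted and 3201 to 3680 in dehydrated arrays. The ranges of the 3 Sprague Dawley groups overlapped in part. On this probe set every Sprague Dawley array lay above every strain array, a difference that coincides with the labelling, while on a second probe set the sets overlapped, with fasted array 4 at 2094 and WKY array 1 at 2341. Atp1b2, the beta subunit of glia, had means of 1051 ± 74.1 in SHR (SD, n = 5) and 1154 ± 70.1 in WKY (SD, n = 5). Its Sprague Dawley means were 968 ± 123 in control (SD, n = 4), 916 ± 201 in fasted (SD, n = 5) and 981 ± 83.4 in dehydrated arrays (SD, n = 4).

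Between the strains, 1 of the 31 tested genes passed an adjusted p of 0.05 in limma's moderated test, against 942 of 18625 probe sets, or 5.06%. The share over all probe sets was 2.17% higher and 2.88% lower in SHR. An unadjusted p under 0.05 was reached by 7 of the 31, or 22.6%, against 17.22% of all probe sets. The median log2 difference was -0.04 over these genes and 0.01 over all probe sets, with 11 differences above 0 and 20 below.

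The gene that passed was Atp2b3, a plasma membrane calcium pump (PMCA3). Its signals were 273, 294, 267, 245 and 302 in SHR and 306, 315, 376, 360 and 329 in WKY. The highest SHR array lay just under the lowest WKY array, so the groups did not overlap, as was so for 6.33% of all probe sets. It fell by 0.27 on the log2 scale in SHR (SE 0.073, limma adjusted p = 0.0369). The call was close to the threshold and was lost in 11 of 21 alternatives, with adjusted p from 0.0282 to 0.452. Leaving out any 1 of SHR arrays 1, 3 or 4 or WKY arrays 3, 4 or 5 ended it, with the adjusted p then reaching 0.1. With the choroid plexus marker mean as a covariate the difference was -0.27 and the adjusted p 0.0488. Markers of other cells also moved between the strains: 3 of 6 tested microglial markers and 3 of 7 tested fibroblast and meningeal markers fell in SHR. Of the choroid plexus markers 1 of 6 tested rose and 1 fell, 1 of 7 area postrema markers and 1 of 2 tested motor neuron markers rose, and the 8 neuronal markers had a median log2 difference of -0.07 with none passing. No marker passed in the astrocyte, oligodendrocyte, endothelial, ependymal or blood lists. The part of these in the Atp2b3 result was not tested.

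2 further calcium pumps had the next smallest p-values between strains. Atp2b2 (PMCA2) had signals of 114, 142, 112, 127 and 127 in SHR and 126, 150.0, 155, 158 and 158 in WKY. Its groups overlapped through WKY array 1, and the log2 difference was -0.24 (SE 0.082, limma adjusted p = 0.122). Atp2a2 (SERCA2), the main pump of the endoplasmic reticulum, had signals of 1237, 1308, 1376, 1305 and 1368 in SHR and 1480, 1327, 1626, 1418 and 1529 in WKY. Its log2 difference was -0.16 (SE 0.058, limma adjusted p = 0.148), and its other probe sets had differences from -0.17 to 0.25. Atp2b1 (PMCA1), the housekeeping plasma membrane pump, had means of 318 ± 21.3 in SHR and 323 ± 18.7 in WKY (SD, n = 5 each), which differed by less than the spread between arrays. Of the 6 tested calcium pumps, 4 had differences below 0 and 2 above, with Atp2a1, the muscle SERCA pump, at 0.32.

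The cotransporters and exchangers of the strain arrays gave no call. Slc12a2 had signals of 287, 265, 260, 265 and 317 in SHR and 342, 293, 324, 309 and 315 in WKY, a log2 difference of -0.18 (SE 0.068, limma adjusted p = 0.176). Slc12a5 had means of 1099 ± 51.7 in SHR and 1163 ± 33.8 in WKY (SD, n = 5 each), and the groups overlapped. Of the 5 tested genes of the cation-chloride cotransporter family 4 had differences below 0 and 1 above. The lowest was -0.18 and the highest, that of Slc12a4, was 0.32 (limma adjusted p = 0.265). The bicarbonate cotransporter Slc4a4 (NBCe1), abundant in astrocytes, had means of 1291 ± 97.4 in SHR and 1391 ± 66.8 in WKY (SD, n = 5 each). The 6 tested genes of the bicarbonate transporter family had log2 differences between -0.12 and 0.06. Those of the 4 tested proton exchangers lay between -0.21 and 0.05, and those of the 3 tested potassium-dependent exchangers between -0.03 and 0.17. Slc8a1 (NCX1), the most widespread sodium/calcium exchanger, had means of 396 ± 26.9 in SHR and 366 ± 28.6 in WKY (SD, n = 5 each), and Slc8a2 (NCX2) had 35.1 ± 5.0 and 35.2 ± 4.3.

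**Figure D1:**
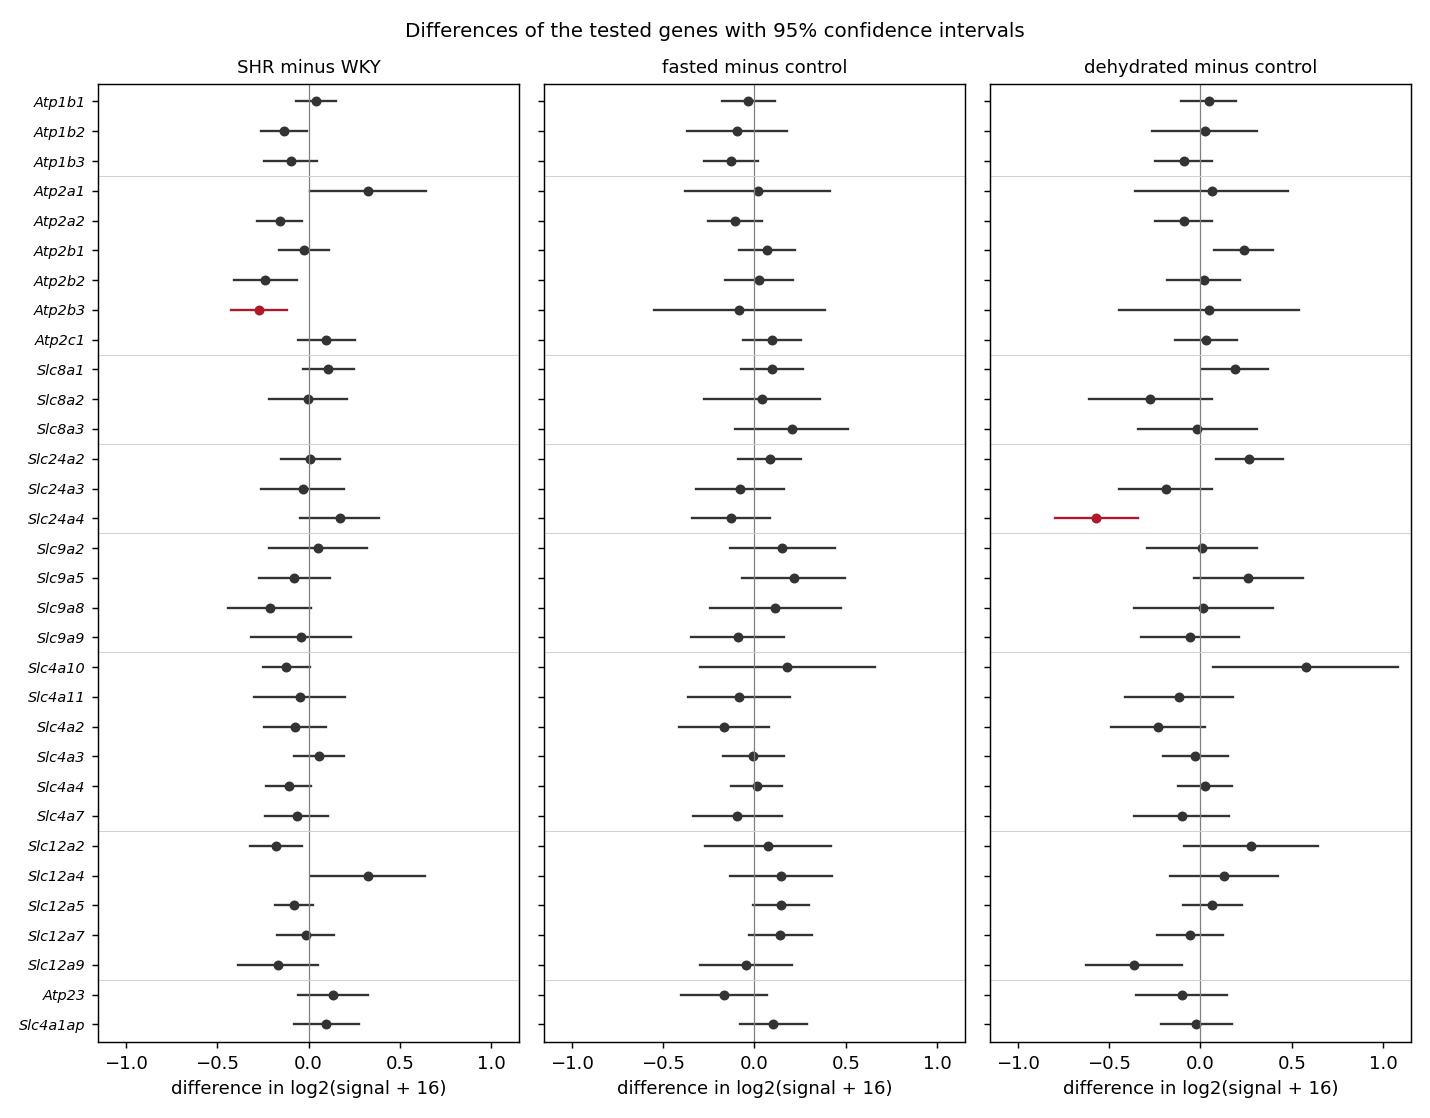
Log2 difference of each tested gene with its 95% confidence interval (bars) between SHR and WKY, fasted and control, and dehydrated and control arrays; grey lines separate the families, and red marks an adjusted p under 0.05. Atp2b3 between the strains and Slc24a4 under dehydration are red, and no gene is red under fasting.

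Proteins that regulate or work beside these transporters were listed by function, 56 genes in 5 lists, of which 48 were measured and 38 tested between strains. In SHR 4 of the 38 fell and none rose, where 2.88% of all probe sets fell and 2.17% rose. The lists were chosen with earlier results of these data known, so setting the count beside these shares is no test. The median log2 difference over the 38 was -0.10. These 4 kept their call in 21 of 21 alternatives. On the same arrays the tested microglial markers had a median log2 difference of -0.36 and the fibroblast and meningeal markers one of -0.28, and the part of these in the partner genes was not tested. In each of the 4 the SHR and WKY arrays did not overlap, as was so for 6.33% of all probe sets. Cab39 (log2 0.14, limma adjusted p = 0.185) and Cab39l (log2 -0.29, limma adjusted p = 0.172) also had no overlap but did not pass.

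Car14, a membrane-bound carbonic anhydrase that supplies bicarbonate and protons at the cell surface, had signals of 193, 248, 165, 197 and 160 in SHR and 450.5, 421, 362, 407 and 398 in WKY. It fell by 1.03 on the log2 scale (SE 0.096, limma adjusted p = 2.52e-06), and a second probe set fell by 0.75 (limma adjusted p = 0.00069). Fxyd5 (dysadherin), a small membrane protein that modulates the sodium pump, had signals of 120, 118, 101, 93.0 and 90.2 in SHR and 166, 165, 146, 156 and 165 in WKY. It fell by 0.55 (SE 0.084, limma adjusted p = 0.00046). These were the carbonic anhydrase and the sodium pump regulator that passed, of 7 and 9 tested in their lists.

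Ezr (ezrin) links membrane proteins such as the proton exchanger NHE3 to actin, though NHE3 (Slc9a3) itself lay below the filter in both sets. Ezr had signals of 929, 1035, 994, 1003 and 999 in SHR and 1435, 1427, 1282, 1251 and 1323 in WKY. It fell by 0.43 (SE 0.054, limma adjusted p = 6.27e-05). Nedd4l, a ubiquitin ligase that removes sodium transport proteins from the membrane, had signals of 144, 146, 118, 138 and 144 in SHR and 215, 197, 184, 170 and 178 in WKY. It fell by 0.41 (SE 0.079, limma adjusted p = 0.00355). In control Sprague Dawley arrays, which had another labelling text, the means were 253 for Car14, 92.2 for Fxyd5, 764 for Ezr and 173.5 for Nedd4l. No test was made across these sets, so which of the strains departed from the other cannot be told. Of the 10 genes tested in the list of WNK and SPAK kinases, which set the activity of the cation-chloride cotransporters, Nedd4l was the gene that passed. None of the 9 calcium pump regulators passed, and the smallest p was that of the calcium release channel Itpr1 (log2 -0.23, limma adjusted p = 0.118).

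**Figure D2:**
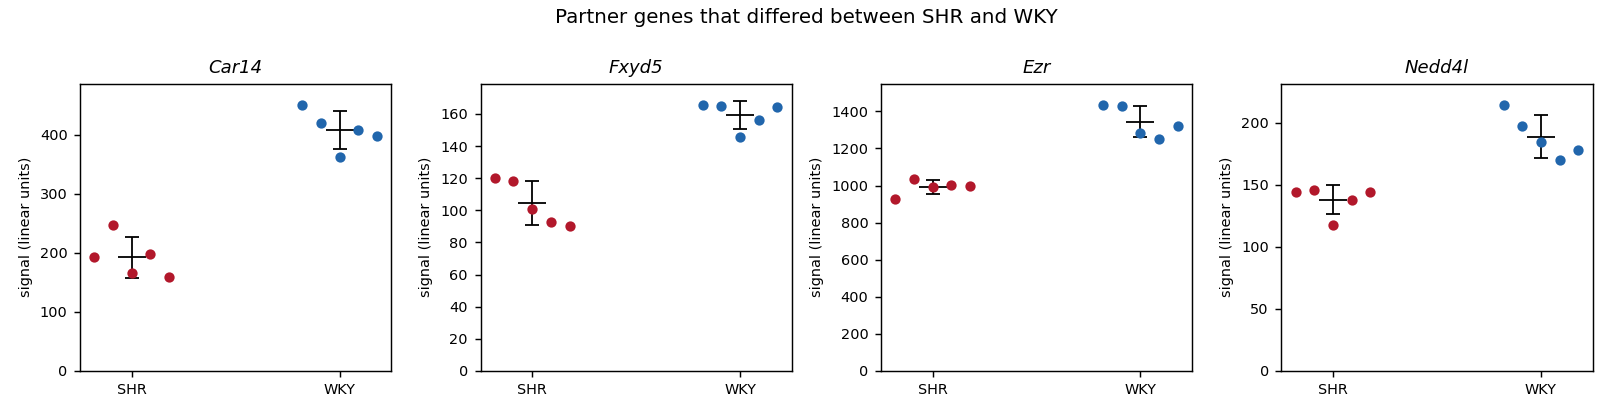
Signal on each SHR and WKY array (points) for Car14, Fxyd5, Ezr and Nedd4l, with the group mean (horizontal mark) and SD (bars), n = 5 per group. In each panel all SHR points lie below all WKY points.

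Fasting for 48 h changed none of the 32 tested genes at the threshold in limma's moderated test, and 0 of them had an unadjusted p under 0.05, against 7.19% of all probe sets. Over all probe sets 4 passed, or 0.0215%. None of the 32 had groups without overlap, against 2.32% of all probe sets. The median log2 difference was 0.02 over these genes and 0.00 over all, with 18 differences above 0 and 14 below.

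The smallest p was that of the chloride extruder Slc12a5. Its signals were 1345, 1209, 1178 and 1251 in control and 1362, 1358, 1284, 1450.3 and 1445 in fasted arrays. The groups overlapped through control array 1, and the log2 difference was 0.15 (SE 0.073, limma adjusted p = 0.698). Atp1b3, a sodium pump beta subunit, had signals of 789, 755, 837 and 775 in control and 736, 819, 675, 699 and 679 in fasted arrays, a log2 difference of -0.13 (SE 0.071, limma adjusted p = 0.71). Slc12a7 (KCC4), another potassium-chloride cotransporter, had signals of 189, 183, 169 and 172 in control and 208, 207, 213, 185 and 179 in fasted arrays, a log2 difference of 0.14 (SE 0.083, limma adjusted p = 0.739). In both genes the 2 groups overlapped. Slc4a4 had means of 1585 ± 149 in control (SD, n = 4) and 1593 ± 55.5 in fasted arrays (SD, n = 5), and the interval of its log2 difference ran from -0.13 to 0.15. None of the 36 tested partner genes passed under fasting. The smallest p of each list belonged to Nkain4, which interacts with the sodium pump (log2 -0.39), Nherf2, a scaffold of proton exchangers (-0.26), Cab39l, a scaffold of the kinase pathway (-0.25), Car8, a carbonic anhydrase relative without enzyme activity (-0.20), and Itpr1 (0.19), with limma adjusted p from 0.595 to 0.703.

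Dehydration for 72 h gave 1 call among the 32 tested genes in limma's moderated test, against 31 of 18625 probe sets, or 0.166%. An unadjusted p under 0.05 was reached by 6 of the 32, or 18.8%, against 11.68% of all probe sets. The dehydrated and control arrays did not overlap in 5 of the 32 genes, against 6.68% of all probe sets. Those 5 were Slc24a4 and Slc12a9, which were lower, and Slc4a10, Atp2b1 and Slc24a2, which were higher in dehydrated arrays. The median log2 difference was 0.01 over these genes and -0.01 over all probe sets. Fasted and dehydrated groups were compared with the same 4 control arrays, of which arrays 1 and 2 had the shorter labelling text.

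The gene that passed was Slc24a4 (NCKX4), which exports calcium together with potassium in exchange for sodium and, in mice, has been tied to olfactory adaptation and to satiety neurons. Its chosen probe set gave signals of 145, 125, 140.0 and 111 in control arrays. The fasted arrays had 132, 120.1, 103, 102 and 132, and the dehydrated arrays 76.6, 77.6, 93.8 and 81.3. All 4 dehydrated arrays lay below all 4 control and all 5 fasted arrays. It fell by 0.57 on the log2 scale, a 1.48-fold lower level after dehydration (SE 0.109, limma adjusted p = 0.0304). A second, dimmer probe set of the gene had means of 37.8 ± 1.7 in dehydrated (SD, n = 4), 37.4 ± 6.7 in fasted (SD, n = 5) and 53.5 ± 7.0 in control arrays (SD, n = 4). On that probe set dehydration differed by -0.36 (limma adjusted p = 0.261) and fasting by -0.39 (limma adjusted p = 0.5), so the probe sets disagreed on the fasted group. The remaining probe set of the gene lay below the filter. In the strains the chosen probe set read 170.3, 120.5, 123, 136 and 147 in SHR and 152, 109, 123, 104 and 123 in WKY, which overlapped.

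The Slc24a4 call was lost in 13 of 22 alternatives, with adjusted p from 0.0172 to 0.25, while the difference itself ran from -0.65 to -0.41. Leaving out control array 1, 2 or 3 or dehydrated array 1, 2 or 4 ended it, with the adjusted p then reaching 0.113. Control arrays 1 and 2 had a shorter labelling text than the other Sprague Dawley arrays, and with only control arrays 3 and 4 the difference was -0.52 (limma adjusted p = 0.25). With the choroid plexus marker mean as a covariate it was -0.57 (limma adjusted p = 0.0528).

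RefSeq places the start of Slc24a4 on chromosome 6 and that of Slc4a10 on chromosome 3 of the rat assembly GRCr8. These genes had the largest differences below and above 0 under dehydration, so the 250 bases before each start are shown, both on the plus strand. They were searched on both strands for TGGAAA, the core of the element bound by Nfat5, the factor of the response to high salt, and a match would stand in capitals. Neither sequence holds it. It occurs in 19.7% of all 33469 promoter windows and in 4 of the 40 windows listed for 38 of the genes described here.
Slc24a4, chr6:127044220-127044469: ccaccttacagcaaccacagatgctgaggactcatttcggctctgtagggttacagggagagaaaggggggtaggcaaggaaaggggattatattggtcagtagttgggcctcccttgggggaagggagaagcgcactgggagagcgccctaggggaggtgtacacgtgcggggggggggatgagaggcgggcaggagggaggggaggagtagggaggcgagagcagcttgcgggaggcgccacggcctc
Slc4a10, chr3:67073653-67073902: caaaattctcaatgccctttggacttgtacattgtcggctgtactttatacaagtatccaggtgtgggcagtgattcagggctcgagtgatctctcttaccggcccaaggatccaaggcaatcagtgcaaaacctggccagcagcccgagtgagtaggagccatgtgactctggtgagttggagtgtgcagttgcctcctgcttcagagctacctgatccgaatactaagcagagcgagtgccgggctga

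Slc4a10 (NCBE), a sodium-dependent bicarbonate transporter of neurons and of the choroid plexus epithelium, had the largest difference above 0. Its signals were 313, 271, 337 and 241 in control, 249.9, 260.0, 323, 623 and 289 in fasted and 442, 449, 492 and 375 in dehydrated arrays. All dehydrated arrays lay above all control arrays, while fasted array 4 was the highest of the 13. The log2 difference from control was 0.58 (SE 0.232, limma adjusted p = 0.371). It passed when only the control and dehydrated arrays were fitted (0.58, limma adjusted p = 0.0385). It also passed without the array of highest Ttr in each Sprague Dawley group (0.59, limma adjusted p = 0.0332), where Slc24a4 did not (-0.59, limma adjusted p = 0.052). With the choroid plexus marker mean as a covariate the difference was 0.44 (limma adjusted p = 0.242).

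3 other genes differed without overlap but did not pass. Atp2b1 had signals of 327, 344, 339 and 349.7 in control and 397, 442, 384 and 393 in dehydrated arrays, a log2 difference of 0.24 (SE 0.078, limma adjusted p = 0.231). On its other probe sets the groups overlapped, with differences of 0.264 (limma adjusted p = 0.617) and 0.115 (limma adjusted p = 0.702). Slc24a2 (NCKX2), the potassium-dependent exchanger of neurons, had 314, 316, 285 and 273 in control and 400.5, 366, 319.5 and 358 in dehydrated arrays. Its log2 difference was 0.27 (SE 0.088, limma adjusted p = 0.233), and a second probe set gave 0.29 (limma adjusted p = 0.303). Slc12a9, a member of the cation-chloride family, had 90.4, 68.6, 75.5 and 64.9 in control and 54.5, 59.7, 40.5 and 64.4 in dehydrated arrays, a log2 difference of -0.36 (SE 0.127, limma adjusted p = 0.265). The 3 tested potassium-dependent exchangers thus lay on both sides of 0: Slc24a2 above, Slc24a4 below, and Slc24a3 at -0.19 (limma adjusted p = 0.559). Beside these, the 4 tested motor neuron markers had a median log2 difference of 0.40 and the 7 tested fibroblast and meningeal markers one of -0.33, none passing, and their part in these differences was not tested.

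**Figure D3:**
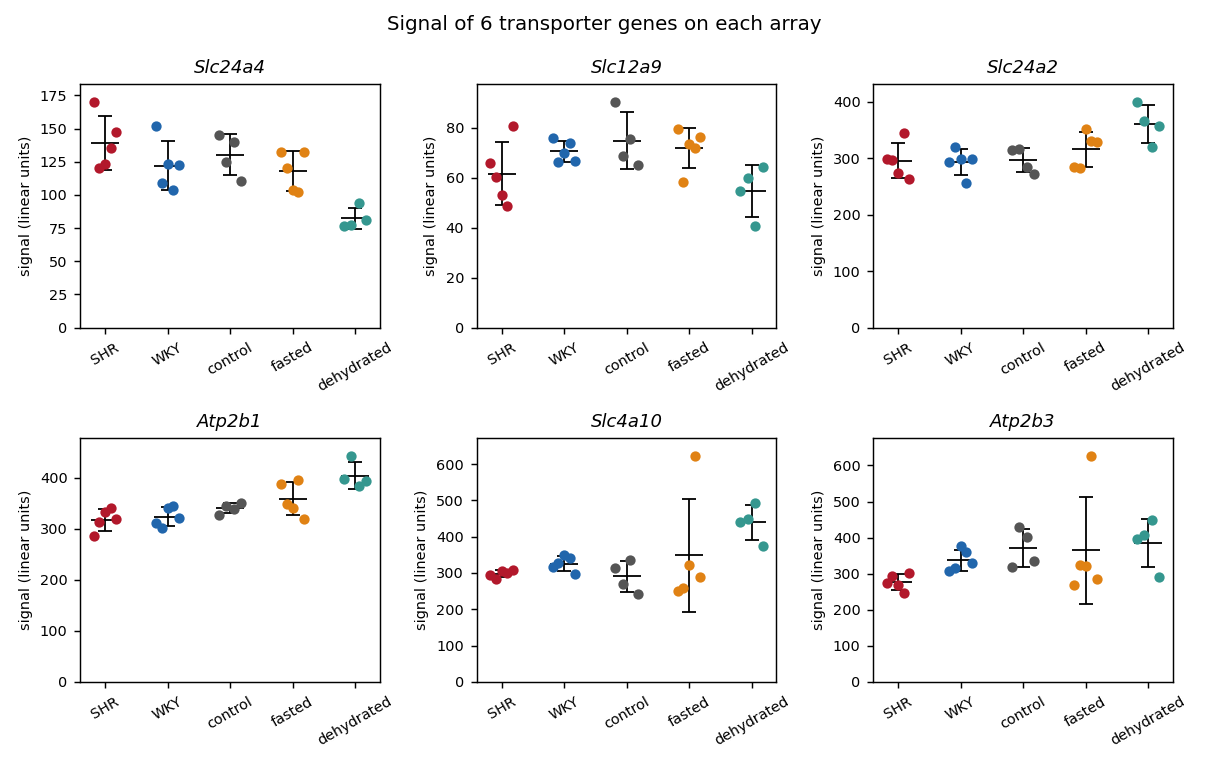
Signal on each array (points) in the 5 groups for the 5 genes whose dehydrated and control arrays did not overlap and for Atp2b3, with the group mean (horizontal mark) and SD (bars), n = 4 or 5 per group. Dehydrated arrays of Slc24a4 lie between 76.6 and 93.8, below all control and fasted arrays, and fasted array 4 stands above the rest for Slc4a10 and Atp2b3.

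On their chosen probe sets the other transporters had dehydrated and control arrays that overlapped. Slc12a5 had means of 1246 ± 72.6 in control and 1309 ± 140 in dehydrated arrays, and Slc4a4 had 1585 ± 149 and 1608 ± 86.0 (SD, n = 4 each). Slc8a1 had means of 376 ± 23.9 and 433 ± 51.6 (SD, n = 4 each), a log2 difference of 0.19 (limma adjusted p = 0.4). Slc8a2 had 30.4 ± 9.2 and 22.1 ± 5.8, near the filter. Atp2a2 had 1978 ± 112 in control and 1857 ± 142 in dehydrated arrays, and Atp2b2 had 170.4 ± 19.5 and 172 ± 15.7 (SD, n = 4 each). On 1 other probe set of Atp2a2 the groups did not overlap, at 248 ± 22.5 and 202 ± 7.4 (log2 -0.27, limma adjusted p = 0.375). The 4 tested proton exchangers had log2 differences between -0.06 and 0.26, and none of the 36 tested partner genes passed. The smallest p of each list belonged to Ezr (log2 -0.21), the mitochondrial carbonic anhydrase Car5b (0.37), Nkain4 (-0.36), Nedd4l (-0.21) and the calcium channel Orai1 (-0.20), with limma adjusted p from 0.257 to 0.516.

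Dehydrated and fasted arrays were compared directly to test whether the treatments differed. None of the 32 genes passed in limma's moderated test, against 6 of 18625 probe sets, or 0.0322%, and 5 of the 32, or 15.6%, had an unadjusted p under 0.05, against 10.0% of all probe sets. Slc24a4 was the 1 gene without overlap, against 3.23% of all probe sets, and its log2 difference was -0.44 (limma adjusted p = 0.197). On its second probe set the difference was 0.02 (limma adjusted p = 0.973), so the probe sets disagreed here. Slc12a9 had signals of 79.5, 58.3, 73.5, 71.8 and 76.2 in fasted arrays and differed by -0.32 (limma adjusted p = 0.397). Slc12a7 had 154, 171, 165.5 and 194 in dehydrated arrays and differed by -0.20 (limma adjusted p = 0.438). In both genes the dehydrated and fasted arrays overlapped. Slc4a10 differed by 0.40 (limma adjusted p = 0.589), and without fasted array 4 by 0.62 (limma adjusted p = 0.0258). No partner gene passed. The smallest p of each list belonged to Ezr (log2 -0.225), Car11 (-0.28), the kinase Oxsr1 (-0.185), the calcium release channel Ryr3 (0.15) and the sodium pump modulator Fxyd7 (0.22), with limma adjusted p from 0.275 to 0.739.

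Slc12a2, Atp2b3 and Slc4a10 varied within the Sprague Dawley groups together with markers of the choroid plexus, the epithelium of the ventricle wall that makes cerebrospinal fluid and that carries Slc12a2 and Slc4a10. Of 11 listed choroid plexus markers 10 were measured, and their summed signal ran from 1919 to 10417 in control, from 1577 to 11682 in fasted and from 1822 to 12619.5 in dehydrated arrays. It ran from 948 to 1509 in the strain arrays. Ttr reached 6559 in control array 3, 6343 in fasted array 4 and 7953 in dehydrated array 3. The remaining Sprague Dawley arrays had Ttr signals from 152 to 4206.

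A model with the group and the mean log2 level of the markers gave each gene a slope, its log2 change per 1 unit of that mean. Over the 13 Sprague Dawley arrays 3 of the 32 tested genes passed, against 43 of 18625 probe sets, or 0.231%. Of those 43 probe sets 6 belonged to the markers themselves. Slc12a2 had a slope of 0.46 (SE 0.063, limma adjusted p = 0.000575). Its signals were 273, 293, 366 and 259 in control, 283, 279, 281, 503 and 261 in fasted and 344, 410.3, 402 and 299 in dehydrated arrays. The 4 arrays with the highest Ttr, from 4206 to 7953, also had the 4 highest Slc12a2 signals.

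Atp2b3 had a slope of 0.49 (SE 0.090, limma adjusted p = 0.0163), with signals of 318, 430, 402 and 334 in control, 268, 324, 322, 626 and 285 in fasted and 395, 407, 450 and 292 in dehydrated arrays. Slc4a10 had a slope of 0.49 (SE 0.096, limma adjusted p = 0.0319). The call held in 12 of 14 alternatives for Slc12a2, in 11 of 14 for Atp2b3 and in 6 of 14 for Slc4a10, whose adjusted p ran from 0.00598 to 0.966. These slopes leaned on few arrays: without fasted array 4 none of the 3 passed, without dehydrated array 4 only Slc12a2 did, and without the array of highest Ttr in each group none of the 32 did. Without those 3 arrays the slopes were 0.53 for Slc12a2, 0.68 for Atp2b3 and 0.06 for Slc4a10. In the strain arrays 0 of the 31 tested genes and 0 of all 18625 probe sets had a slope past the threshold in limma's moderated test. An unadjusted p under 0.05 was reached by 5 of the 31 and 1032 of the 18625. The marker mean ran only from -0.56 to -0.21 there, against -0.3 to 1.32 in Sprague Dawley arrays, which left the slopes imprecise. They were 0.557 for Slc12a2 (SE 0.246), -0.085 for Atp2b3 (SE 0.304) and 0.116 for Slc4a10 (SE 0.251). The lack of calls therefore cannot show that a relation was absent.

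**Figure D4:**
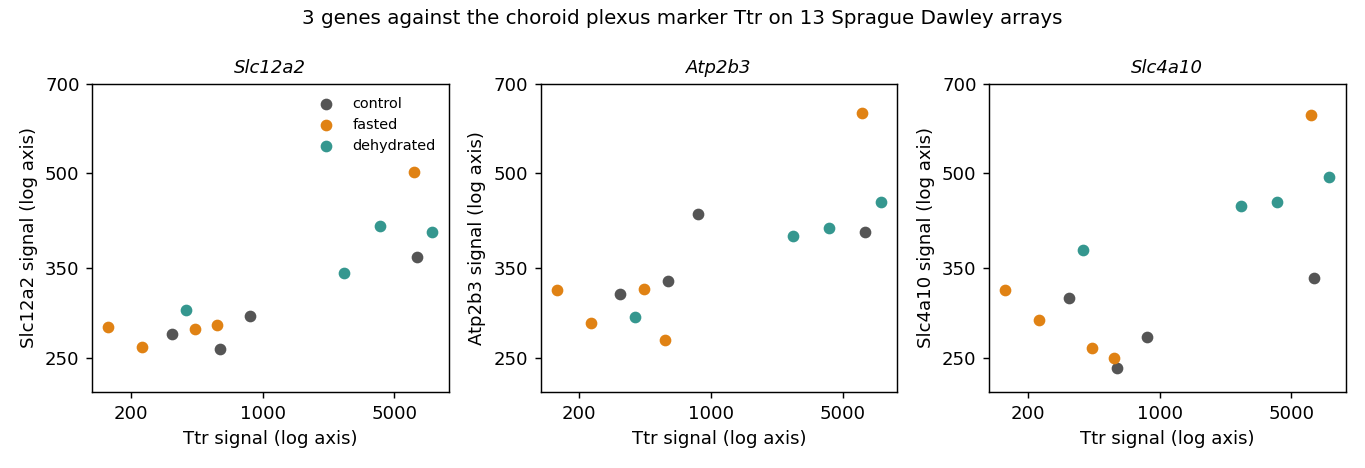
Signal of Slc12a2, Atp2b3 and Slc4a10 against that of the choroid plexus marker Ttr on the 13 Sprague Dawley arrays, both on log axes, coloured by group. For Slc12a2 the 4 arrays of highest Ttr are also the 4 of highest signal, and for Slc4a10 all 4 dehydrated arrays lie above all control arrays.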

How the data were processed

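Area postrema RNA was measured on 23 arrays, 1 pool of 5 rats each, and the deposited values are linear intensity signals that the authors made with GCOS 1.2, per the submitters' processing notes. No source used here gives the software's settings. Each array had a trimmed mean of 100.03 and a median between 39.81 and 44.48, so the signals were used as deposited. The number of arrays limits the precision. Groups came from the sample titles, and gene symbols from the platform annotation, which named 1 gene for 20832 probe sets, several for 436 and none for 9831.

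Signals were transformed as log2(signal + 16), which makes folds of dim genes too small. 57 control probe sets were left out, as were those below the 40th percentile of the mean over a fit's arrays, which left 18625. Moderated tests, two-sided, with limma 3.58.1 (R 4.3.3; lmFit and a robust, trended eBayes) were run on the 10 strain arrays and, in 1 model, on the 13 Sprague Dawley arrays, with Benjamini-Hochberg adjustment over all probe sets kept and a threshold of 0.05. The p-values measure the spread between pools, not between animals. Partner genes and cell markers were listed from general knowledge. The members and lists were chosen with earlier results of these data known. Full values are given for members past the threshold, for the 3 with the smallest p in each comparison and for those without overlap, and other members by family. From each partner list the members past the threshold are named, or otherwise the 1 with the smallest p. Alternatives covered normalization, pseudocount, filter, eBayes settings, array weights, the arrays in the fit, covariates, the replicate number, gene means and each array left out. 3 were added after seeing the data: leaving out the array of highest Ttr in each Sprague Dawley group, and the slope on choroid plexus markers with and without those arrays. Promoter windows are from RefSeq (GRCr8). Python 3.11.15, numpy 2.4.6, pandas 2.3.3 and matplotlib 3.10.9 were used for tables and plots.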

Additional observations from a re-analysis of the deposited data

Results flagged for a closer look

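Of 60 groups of arrays examined over 12 genes with Dixon's test, 7 held an array apart from the rest of its group. The 12 genes were singled out by their results in these same data, and 3 of the 7 flags fall on 1 array. A chance rate of about 1 in 20 is therefore no yardstick for this count. Fasted array 4, which also had the highest Ttr signal of its group (6343), stood apart for 3 genes: Atp2b3 at 626 against 268 to 324 on the other fasted arrays, Slc4a10 at 623 against 249.9 to 323, and Slc12a2 at 503 against 261 to 283. WKY array 1 was the lowest of its group for Atp2b2, at 126 against 150.0 to 158, and for Slc12a7, at 140.2 against 168 to 178. Dehydrated array 4, with the lowest Ttr of its group (394), had 149 for Atp2b2 against 179 to 181. Control array 4 had 1811 for Atp2a2 against 2030.3 to 2038. Over the 13 Sprague Dawley arrays the slopes on the choroid plexus marker mean were 0.46 for Slc12a2 and 0.49 for Atp2b3 and Slc4a10. They were 0.09 for Atp2b2 and 0.01 for Atp2a2, and neither of these passed. The part of the choroid plexus signal in the single values was not tested.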

How the results depend on the processing

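The strain count of 1 gene fell to 0 without a filter, without trend and robust eBayes, with all 23 arrays in 1 model, with the replicate block, with the Gapdh 3 prime to 5 prime ratio as a covariate and with gene means, and ran from 0 to 1 with 1 array left out. The dehydrated minus control count of 1 fell to 0 under the same settings except the 23-array model, and also with the choroid plexus covariate and with only control arrays 3 and 4. Without the 3 arrays of highest Ttr it was 1, with Slc4a10 passing (adjusted p = 0.0332) and Slc24a4 not (adjusted p = 0.052). It was 2 with only those groups fitted, and 0 to 1 with 1 array left out. The dehydrated minus fasted count of 0 ran from 0 to 1 with 1 array left out, and the fasting count stayed 0 in 24 alternatives. The count of slopes, 3, was 0 without the 3 arrays of highest Ttr and 0 to 3 with 1 array left out. Gene means gave no value for Atp2b3 between strains or Slc24a4 among Sprague Dawley arrays, since both then lay below the filter.

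Among Sprague Dawley arrays the small differences of Atp2b3 changed sign. Dehydrated minus control (0.048) became -0.016 with the Gapdh covariate, -0.085 with the choroid plexus covariate and -0.111 with gene means, and ran from -0.028 to 0.171 with 1 array left out. Dehydrated minus fasted (0.13) became -0.048 and -0.053 with these covariates. Fasted minus control (-0.082) became 0.032 with the Gapdh covariate and ran from -0.288 to 0.007 with 1 array left out. With 1 array left out, fasted minus control ran from -0.092 to 0.172 for Slc12a2 and from -0.043 to 0.273 for Slc4a10, below 0 only without fasted array 4. The causes were not tested.

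Equal replicate numbers did not pair the arrays: correlations of their deviations ran from -0.17 to 0.27. With the replicate block the adjusted p was 0.0509 for Atp2b3 and 0.074 for Slc24a4, and both counts were 0. Signals near the filter limit what can be read from the 12 dim genes.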
